A study of Homo sapiens with 14 samples.

Results

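NCI-H1395 cells with an siRNA against ADAR, labelled as human lung adenocarcinoma cells, gave 2 libraries, and the same cells with a control siRNA gave 1. These 3 libraries were picked by their column names and labels from the 14 RNA sequencing libraries of the series. The other 11 come from the same siRNA comparison in the breast cancer lines MDA-MB-231 and BT-549 and the stomach cancer line AGS (9 libraries), and from NOP14 overexpression and its control in MDA-MB-231 (2 libraries). The labels name no genotype, dose, time or siRNA sequence. The labels number the ADAR siRNA libraries 1 and 2 and do not say whether a number stands for a repeat or for another siRNA, nor that the libraries come from separate cultures. Both were set against the same control library, so their changes are not independent of each other, and each is reported on its own.

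ADAR encodes ADAR1, an enzyme that turns adenosine into inosine in double-stranded RNA. Unedited double-stranded RNA made by the cell itself can be sensed by MDA5 (IFIH1), which drives interferon and interferon-stimulated genes, and by PKR (EIF2AK2), which phosphorylates the translation factor eIF2alpha. Phosphorylated eIF2alpha slows translation and raises ATF4 protein, whose target genes form the integrated stress response. An siRNA is itself a short RNA duplex, through which Argonaute cuts transcripts of matching sequence.

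ADAR siRNA libraries 1 and 2 held 20963856 and 14858945 counts, and the control library 17755733. Mitochondrial transcripts took 3.56% and 4.22% of the counts in the ADAR siRNA libraries and 3.84% in the control. Levels are in CPM, the count of a gene relative to its library's total after TMM normalization. Lung lineage markers did not clearly bear out the labelled tissue. The surfactant genes SFTPA1, SFTPA2, SFTPC and SFTPD had 0 counts in all 3 libraries, and the lung lineage factor NKX2-1 had 4 and 0 counts in ADAR siRNA libraries 1 and 2 and 2 in the control. The epithelial genes EPCAM (13 and 8 counts, against 6) and CDH1 (3 and 12, against 0) were near 0 as well. The lipid transporter ABCA3 of alveolar cells was at 118 and 97.4 CPM with ADAR siRNA and 116 CPM with control siRNA. It was as high in the control siRNA library of the stomach line AGS (119.5 CPM), so its level does not single out lung here. The keratin KRT18 was at 498 and 394 CPM, against 590 CPM. The mesenchymal filament gene VIM stood at 1457 and 2540 CPM, against 2410 CPM. The immune cell genes PTPRC and CD3E had 0 counts in all 3 libraries. CD14 had 13 and 3 counts with ADAR siRNA and 1 with control siRNA, and CD68 had 3 and 1, against 0. ITGAM, also on the immune cell list, was at 10.5 and 7.62 CPM, against 6.49 CPM. The cells are called NCI-H1395 below as the labels have it.

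ADAR (ENSG00000160710.18; hg38, chromosome 1, 154581695 to 154628013) was measured first, as the target of the siRNA. It stood at 41.8 CPM in ADAR siRNA library 1 and 47.1 CPM in library 2, against 397 CPM in the control library. Both ADAR siRNA libraries were thus low, at 10.5% and 11.9% of the control, and they differed little from each other. The pair of ADAR siRNA libraries against the control had a fitted log2 fold change of -3.16 ± 0.26 (standard error; edgeR adjusted p = 9.45e-07). The related enzyme ADARB1 (ADAR2), which also edits double-stranded RNA, was at 33.3 and 38.8 CPM with ADAR siRNA and 34.9 CPM with control siRNA. NOP14, a nucleolar protein of small ribosomal subunit assembly and the other gene manipulated in the study, was at 144 and 79.6 CPM, against 124 CPM. It lay above the control in library 1 and below it in library 2, and neither difference was called (edgeR adjusted p = 1 and 0.809).

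A gene was called where its edgeR quasi-likelihood test gave a Benjamini-Hochberg adjusted p under 0.05. With both ADAR siRNA libraries taken as a pair, ADAR was the 1 gene called of 23959 tested (0.00417%). Without ADAR siRNA library 1 there were 38 calls and without library 2 there were 39, each with the lone NCI-H1395 libraries assumed to vary like the other lines. With both libraries, 1270 genes had an unadjusted p under 0.05 (5.30%), and DESeq2 called 47 (0.196%), of which 30 were at least 2-fold higher (0.125%) and 11 at least 2-fold lower (0.0459%) in both libraries. Tested apart, library 1 had 30 genes called higher (0.125%) and 7 called lower (0.0292%), and library 2 had 25 higher (0.104%) and 14 lower (0.0584%). In these tests of 1 library against 1 control the spread comes only from the pairs of libraries of the other 3 lines, and the control is assumed to vary like them. Without the MDA-MB-231 libraries the calls dropped to 13 in library 1 and 6 in library 2. Only 6 genes were called in the same direction in both libraries (0.0250%), namely ADAR, lower, and ARRDC4, ATF3, CHAC1, TRIB3 and MYH14, higher. That reading of a shared change was added after the data were seen.

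**Figure D1:**
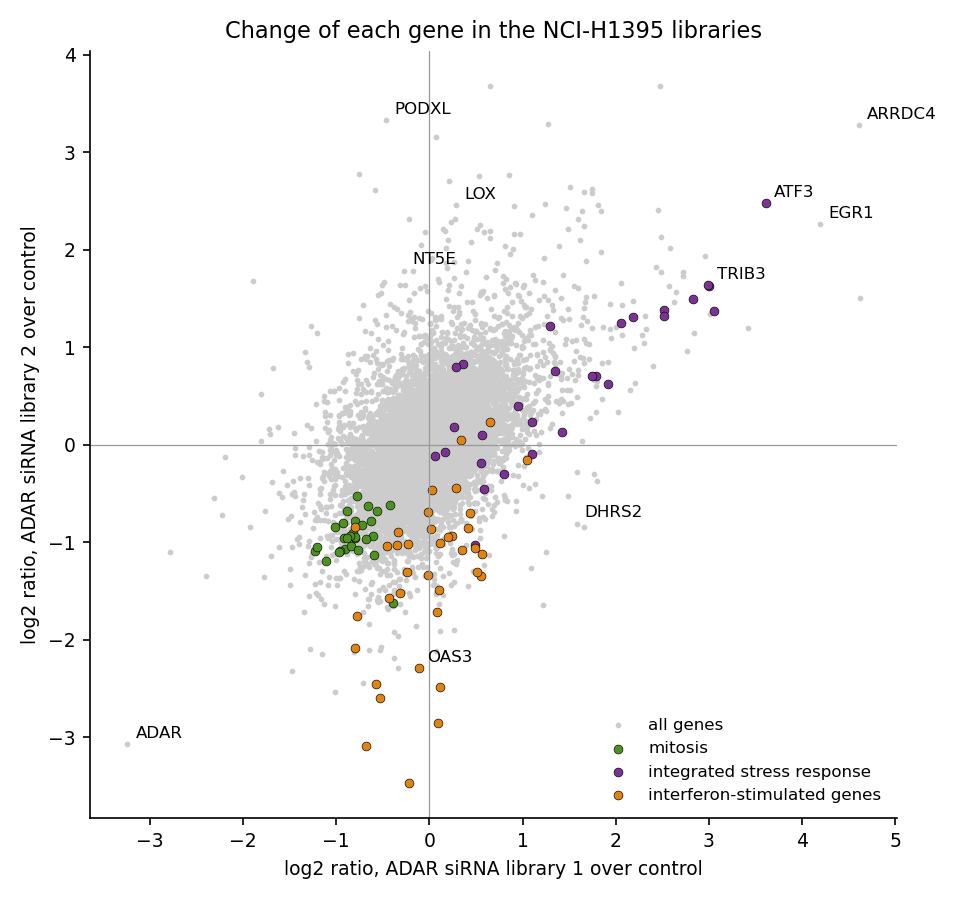
Log2 ratio of each gene in ADAR siRNA library 1 (horizontal) and library 2 (vertical), both over the same control library, for the 11567 genes with at least 5 CPM in 1 of the 3 libraries (prior count 2). ADAR lies at the lower left, integrated stress response genes (purple) reach up and right, mitosis genes (green) sit below 0 on both axes, and interferon-stimulated genes (orange) spread downward on the library 2 axis near 0 on the library 1 axis.

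ATF3, a stress-induced transcription factor (ENSG00000162772.18; chromosome 1, 212565334 to 212620777), was at 56.7 CPM in ADAR siRNA library 1 and 25.8 CPM in library 2, against 4.54 CPM in the control. Its fitted log2 fold change was 3.64 ± 0.46 in library 1 (edgeR adjusted p = 0.000104) and 2.50 ± 0.45 in library 2 (0.0113). TRIB3, a pseudokinase that damps stress signalling (ENSG00000101255.12; chromosome 20, 362835 to 397559), had 243 and 94.5 CPM with ADAR siRNA and 30.4 CPM with control siRNA. CHAC1, which degrades glutathione (ENSG00000128965.13; chromosome 15, 40952962 to 40956512), had 102 and 39.3 CPM, against 12.7 CPM. All 3 were higher in both libraries and lay further from the control in library 1 than in library 2. ARRDC4, an arrestin-domain adaptor that limits glucose uptake (ENSG00000140450.9), had 9.16 and 3.57 CPM, against 0.27 CPM. MYH14, a nonmuscle myosin heavy chain (ENSG00000105357.20), had 2.15 and 3.51 CPM, against 0.27 CPM. ARRDC4 and MYH14 had 5 counts each in the control. Without the MDA-MB-231 libraries, ATF3, TRIB3, CHAC1 and ARRDC4 remained called in library 1 and none of them in library 2.

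The integrated stress response was the list with the most calls in library 1. Of its 30 genes, 22 lay above the control in both ADAR siRNA libraries and 0 lay below it in both, where 32.4% and 30.8% of all genes tested did so (30.2% and 38.3% of those with at least 5 CPM in 1 library). The list's median log2 ratio was 1.20 in library 1 and 0.67 in library 2, against 0.00 in both for all genes tested. In library 1, 11 of the 30 were called higher (0.125% of all genes tested were), and in library 2 the 3 already described (0.104%). The pair test called 0 of the 30 with edgeR, and 16 had an unadjusted p under 0.05, as did 5.30% of all genes tested. DESeq2 called 9 for the pair, against 0.196% of all genes tested. Ratios were larger in library 1 for 28 of the 30, where library 2 lay below library 1 in 44.6% of all genes tested. The exceptions were VLDLR, a lipoprotein receptor, and JDP2, a repressor of AP-1 sites.

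Named by role, the translation and death arm of this response came first. DDIT3 (CHOP), a transcription factor that promotes cell death, was at 115 CPM in ADAR siRNA library 1 and 35.8 CPM in library 2, against 13.8 CPM in the control (library 1 log2 fold change 3.06 ± 0.40, edgeR adjusted p = 8.29e-06). It was the 1 member called between the libraries, with a log2 difference of library 2 from library 1 of -1.68 ± 0.38 (edgeR adjusted p = 0.0479). PPP1R15A (GADD34), which recruits the phosphatase that reverses eIF2alpha phosphorylation, had 202 and 116 CPM, against 48.6 CPM. SESN2, a leucine sensor that restrains mTORC1, had 67.6 and 30.8 CPM, against 11.7 CPM. Each stood in the same order, library 1 above library 2 above the control. DDIT4 (REDD1), also an mTORC1 inhibitor, differed from them in being about level in the ADAR siRNA libraries, with 158 and 150 CPM, against 64.4 CPM, and was called by DESeq2 for the pair (adjusted p = 0.00388).

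Amino acid genes of the list followed the same order. ASNS, which makes asparagine, had 29.5 and 11.6 CPM with ADAR siRNA and 4.05 CPM with control siRNA. CTH, which makes cysteine from cystathionine, had 18.4 and 7.99 CPM, against 3.13 CPM. The cystine importer SLC7A11 had 66.9 and 36.4 CPM, against 14.6 CPM, and its partner subunit SLC3A2 had 522 and 247 CPM, against 151 CPM. All 4 were called higher in library 1 (edgeR adjusted p = 0.0092, 0.00107, 0.000472 and 0.0092) and none in library 2. The mRNA of ATF4 itself, whose protein level is set largely by translation, lay near the control at 204 and 180 CPM, against 196 CPM. The serine and folate genes of the list were mixed: MTHFD2, a mitochondrial folate enzyme, was at 217 CPM in library 1 and 75.6 CPM in library 2, against 155 CPM, and passed no test. Cytosolic tRNA synthetases, of which several are also ATF4 targets, lay lower in library 2 than in library 1 in 19 of 20 genes, all but RARS1. AARS1, the alanyl-tRNA synthetase, had 543 and 250 CPM, against 222 CPM, and 0 of the 20 were called in either library.

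**Figure D2:**
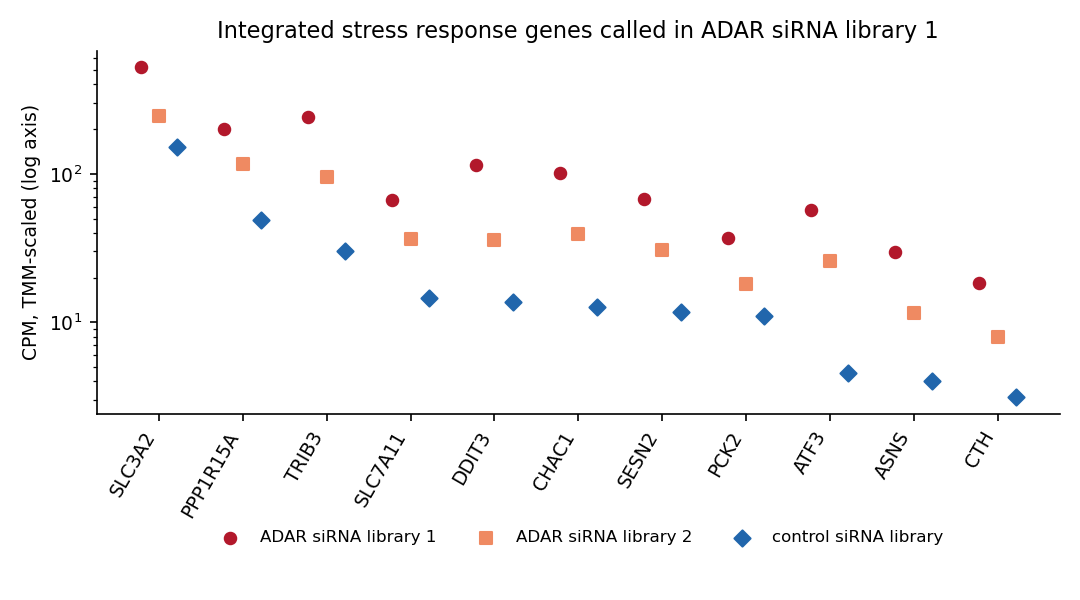
Level in TMM-scaled CPM (vertical, log axis) of the 11 integrated stress response genes called higher in ADAR siRNA library 1, in each of the 3 NCI-H1395 libraries. For each gene, library 1 is highest, library 2 lies between and the control is lowest.

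Part of this list shares a short promoter motif. The C/EBP-ATF response element bound by ATF4 was searched as TGATGNAA on both strands, in the 300 bases from 250 before to 50 after each RefSeq gene start. It stood in 4 of the 10 promoters at hand for the 11 genes called in library 1 (ASNS, ATF3, CHAC1 and SLC3A2), and in 6 of 25 for the whole list (24.0%), against 1003 of 27305 promoters in all (3.67%). It was in 0 of 14 promoters of the other genes called higher in library 1, too few promoters for a comparison at a share of 3.67%. Of the 4 promoters with the motif, 3 are shown because their genes carry the stress response described above. Each is the 250 bases before the RefSeq gene start in GRCh38.p14, 5′ to 3′ on the gene's strand, with the motif in capitals. CHAC1 lies at chr15:40953221-40953470 on the plus strand, ATF3 at chr1:212565157-212565406 on the plus strand and ASNS at chr7:97872409-97872658 on the minus strand.
CHAC1: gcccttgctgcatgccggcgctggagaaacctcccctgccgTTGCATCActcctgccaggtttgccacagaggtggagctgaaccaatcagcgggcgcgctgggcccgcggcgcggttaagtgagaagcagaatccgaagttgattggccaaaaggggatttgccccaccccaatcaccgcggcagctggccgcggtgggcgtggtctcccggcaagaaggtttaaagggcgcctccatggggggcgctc
ATF3: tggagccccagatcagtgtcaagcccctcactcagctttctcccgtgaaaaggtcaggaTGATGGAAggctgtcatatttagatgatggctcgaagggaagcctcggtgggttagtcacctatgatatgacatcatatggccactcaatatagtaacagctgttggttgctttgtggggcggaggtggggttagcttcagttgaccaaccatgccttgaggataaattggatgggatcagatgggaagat
ASNS: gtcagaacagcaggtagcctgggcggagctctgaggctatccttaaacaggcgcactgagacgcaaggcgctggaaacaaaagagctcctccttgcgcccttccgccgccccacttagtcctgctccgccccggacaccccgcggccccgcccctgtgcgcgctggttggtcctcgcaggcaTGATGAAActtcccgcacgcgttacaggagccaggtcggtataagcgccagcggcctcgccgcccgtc
In CHAC1 the motif reads on the opposite strand, as TTGCATCA. A match describes the letters only, and RefSeq starts need not be the starts used in NCI-H1395.

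Interferon-stimulated genes separated the libraries. Their 43 measured genes had a median log2 ratio of 0.00 in ADAR siRNA library 1 and -1.08 in library 2, and their summed level was 5492 CPM in library 1, 2322 CPM in library 2 and 4916 CPM in the control. Library 2 lay below library 1 in 41 of the 43, all but EPSTI1 and MX2, which had under 1 CPM in each library. In library 1, 0 of the 43 were called in either direction (edgeR; 4 at an unadjusted p under 0.05, as were 4.41% of all genes tested). In library 2, 10 were called lower and 0 higher, against 0.0584% and 0.104% of all genes tested. Between the ADAR siRNA libraries 14 genes were called lower in library 2 (0.0584%) and 17 higher (0.0710%), and 10 of the 14 were interferon-stimulated genes. The 3 members above the control in both libraries were DDX60, IFI44 and IRF9, and none was called.

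The OAS enzymes make the 2′-5′-linked oligoadenylates that switch on RNase L in response to double-stranded RNA. OAS3 (ENSG00000111331.14; chromosome 12, 112938051 to 112976460) was at 275 CPM in ADAR siRNA library 1 and 60.7 CPM in library 2, against 297 CPM in the control. Its neighbour OAS2 had 45.6 and 10.8 CPM, against 65.8 CPM, and OAS1 had 22.4 and 5.99 CPM, against 33.5 CPM. Library 1 was close to the control for OAS3 and lower than it for OAS2 and OAS1, while library 2 lay far below the control in all 3. The fitted log2 difference of library 2 from library 1 was -2.18 ± 0.35 for OAS3 (edgeR adjusted p = 0.000763), -2.08 ± 0.35 for OAS2 (0.00139) and -1.91 ± 0.39 for OAS1 (0.0153). IFIT2 and IFIT3 belong to a family of antiviral proteins that act on foreign RNA. IFIT2 had 496 and 133 CPM, against 339 CPM, and IFIT3 had 349 and 99.9 CPM, against 329 CPM.

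Modifier, membrane and mitochondrial members showed the same gap between the libraries. ISG15, a ubiquitin-like modifier, was at 715 CPM in ADAR siRNA library 1 and 224 CPM in library 2, against 485 CPM in the control. USP18, which removes ISG15 and blunts interferon receptor signalling, had 67.8 and 19.1 CPM, against 47.4 CPM. Both lay above the control in library 1 and below it in library 2, and only the difference between the libraries was called (edgeR adjusted p = 0.0153 and 0.0322). RSAD2 (viperin), which makes a chain-terminating nucleotide, had 9.63 and 1.15 CPM, against 9.03 CPM. IFI27, a small mitochondrial protein, had 17.4 and 2.78 CPM, against 16.1 CPM, and IFITM1, a membrane protein that blocks virus entry, had 9.5 and 1.69 CPM, against 15.2 CPM. Their log2 differences of library 2 from library 1 were -3.06 ± 0.51, -2.64 ± 0.41 and -2.48 ± 0.51 (edgeR adjusted p = 0.00154, 0.000476 and 0.024).

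The calls in this list rest on the libraries of the other lines. Of the 8 members with at least 5 CPM that were called lower in library 2, 1 (OAS2) stayed called without the MDA-MB-231 libraries and 6 with library totals as the scale. Of the 10 called between the libraries, 1 (IFI27) stayed called without MDA-MB-231, 6 with library totals and 10 with DESeq2.

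**Figure D3:**
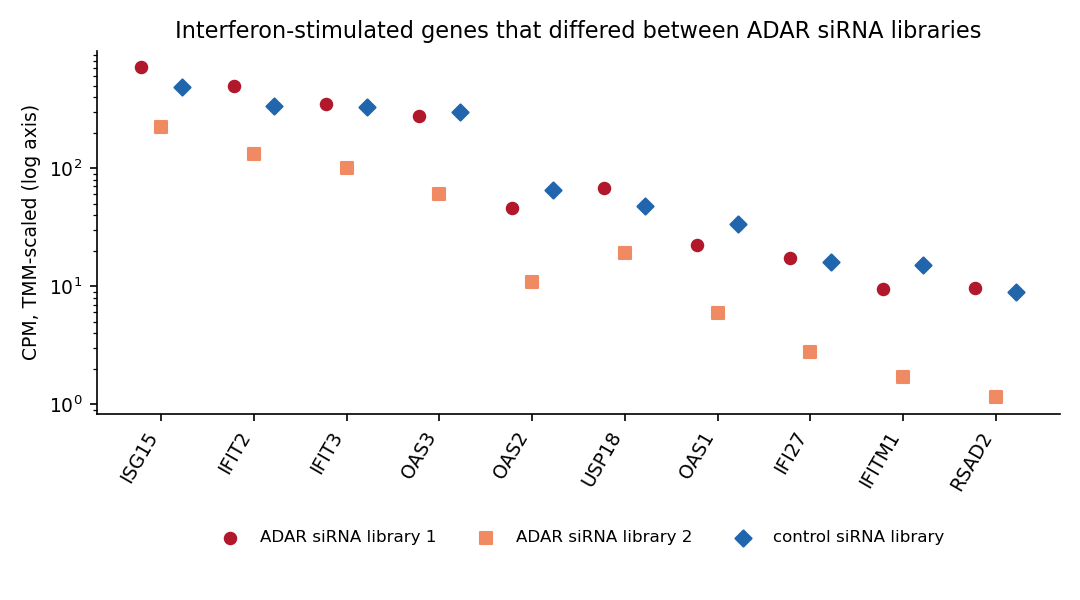
Level in TMM-scaled CPM (vertical, log axis) of the 10 interferon-stimulated genes that differed between the ADAR siRNA libraries, in each of the 3 NCI-H1395 libraries. Library 2 is lowest for every gene, while library 1 and the control lie nearer to each other.

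The promoters of these genes share a longer motif. The interferon-stimulated response element was searched as GAAA, any 2 bases and GAAA again, on both strands, in the same windows. It stood in 5 of the 7 promoters at hand for the 10 genes that differed between the libraries (IFI27, IFIT3, IFITM1, ISG15 and OAS3), in 23 of 35 for the whole list (65.7%), and in 996 of 27305 promoters in all (3.65%). The share among the genes that differed (71.4%) was thus near that of their list, so it does not set them apart from the other members. The other genes called lower in library 2 than in library 1 had it in 0 of 3, too few promoters for a comparison. Promoters are shown for IFIT3, ISG15 and OAS3, which had the most counts of these 5 genes, again as the 250 bases before the RefSeq start in GRCh38.p14 on the plus strand, with the motif in capitals. IFIT3 lies at chr10:89327747-89327996, ISG15 at chr1:1013247-1013496 and OAS3 at chr12:112938224-112938473.
IFIT3: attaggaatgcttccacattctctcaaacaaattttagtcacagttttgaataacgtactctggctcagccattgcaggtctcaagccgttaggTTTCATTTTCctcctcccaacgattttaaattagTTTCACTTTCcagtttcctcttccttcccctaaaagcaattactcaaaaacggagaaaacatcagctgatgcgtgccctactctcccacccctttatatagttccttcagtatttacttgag
ISG15: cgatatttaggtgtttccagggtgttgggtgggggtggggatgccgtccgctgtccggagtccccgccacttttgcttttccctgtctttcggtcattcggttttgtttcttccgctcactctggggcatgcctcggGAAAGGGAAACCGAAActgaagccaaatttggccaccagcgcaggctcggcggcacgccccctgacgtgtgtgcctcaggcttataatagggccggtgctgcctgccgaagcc
OAS3: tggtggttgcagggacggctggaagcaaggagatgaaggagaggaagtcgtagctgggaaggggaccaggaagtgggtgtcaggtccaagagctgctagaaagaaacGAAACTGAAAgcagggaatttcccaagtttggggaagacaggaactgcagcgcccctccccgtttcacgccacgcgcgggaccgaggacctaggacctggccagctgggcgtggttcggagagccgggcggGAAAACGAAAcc
The stress motif was in 0 of the 35 promoters of the interferon-stimulated list and this motif in 0 of the 25 of the stress response list. In ISG15 a pair of matches overlap, and in IFIT3 both read on the opposite strand.

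Of 23 genes for double-stranded RNA sensing and interferon signalling, 0 were called by edgeR in either library or between the libraries. At an unadjusted p under 0.05 were 3, 4 and 5 of them, against 1057, 1579 and 1155 of 23959 genes tested. Their median log2 ratio was 0.12 in library 1 and -0.18 in library 2. IFIH1 (MDA5) was at 375 CPM in ADAR siRNA library 1 and 147 CPM in library 2, against 319 CPM in the control, a log2 difference of library 2 from library 1 of -1.35 ± 0.34 (edgeR adjusted p = 0.11). TLR3, an endosomal sensor, had 5.37 and 2.12 CPM, against 5.51 CPM. In both, library 1 was near the control and library 2 low, without a call. EIF2AK2 (PKR) was at 175 and 119 CPM with ADAR siRNA and 221 CPM with control siRNA. NLRP1, an inflammasome sensor that can bind double-stranded RNA, had 55.1 and 60.3 CPM, against 35.2 CPM. The interferon gene IFNB1 had 30 counts in library 1, 5 in library 2 and 4 in the control, and IFNL3 had 17, 0 and 0. IFNL1 had 26, 0 and 2, and IFNL2 had 6, 0 and 1. Each of these interferon genes was highest in library 1, on few counts, and none was called.

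Of the 17 genes called higher in library 2 than in library 1, the first 5 by the size of the log2 ratio, with at least 5 CPM, were PODXL, DNER, WNT7B, ITGA2 and LOX. PODXL (podocalyxin, an anti-adhesive surface sialomucin; ENSG00000128567.17; chromosome 7, 131500262 to 131558217) was at 27.1 CPM in ADAR siRNA library 1 and 376 CPM in library 2, against 37.5 CPM in the control. ITGA2, an integrin subunit that binds collagen, had 48.0 and 245 CPM, against 111 CPM. LOX, which crosslinks collagen, had 7.78 and 35.5 CPM, against 6.38 CPM. The Notch ligand DNER had 0.43 and 6.29 CPM, against 1.89 CPM, and WNT7B, a Wnt ligand, had 0.90 and 9.13 CPM, against 1.41 CPM. Library 2 was highest for all 5, and library 1 was below the control for all but LOX.

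For these 5 the fitted log2 difference of library 2 from library 1 ran from 2.19 ± 0.37 for LOX (edgeR adjusted p = 0.00154) to 3.85 ± 0.55 for DNER (0.000145). Of them PODXL and LOX were also called against the control in library 2 (edgeR adjusted p = 0.00797 and 0.000381). Further genes called between the libraries, named after their values were seen, included NT5E (CD73), which makes adenosine from AMP, with 340 and 1416 CPM, against 411 CPM. The urokinase PLAU, which activates plasminogen, had 283 and 1265 CPM, against 703 CPM. The peptidase ANPEP had 107 and 448 CPM, against 152 CPM, and the TGF-beta receptor TGFBR2 had 79.3 and 259 CPM, against 92.1 CPM. TGM2, which crosslinks proteins, differed in its pattern, with 61.8 and 218 CPM, against 203 CPM, so that library 1 was the library apart. With library totals as the scale 12 genes were called between the libraries in place of 31, and without MDA-MB-231 there were 5, namely DNER, ITGA2, PODXL, DHRS2 and IFI27.

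**Figure D4:**
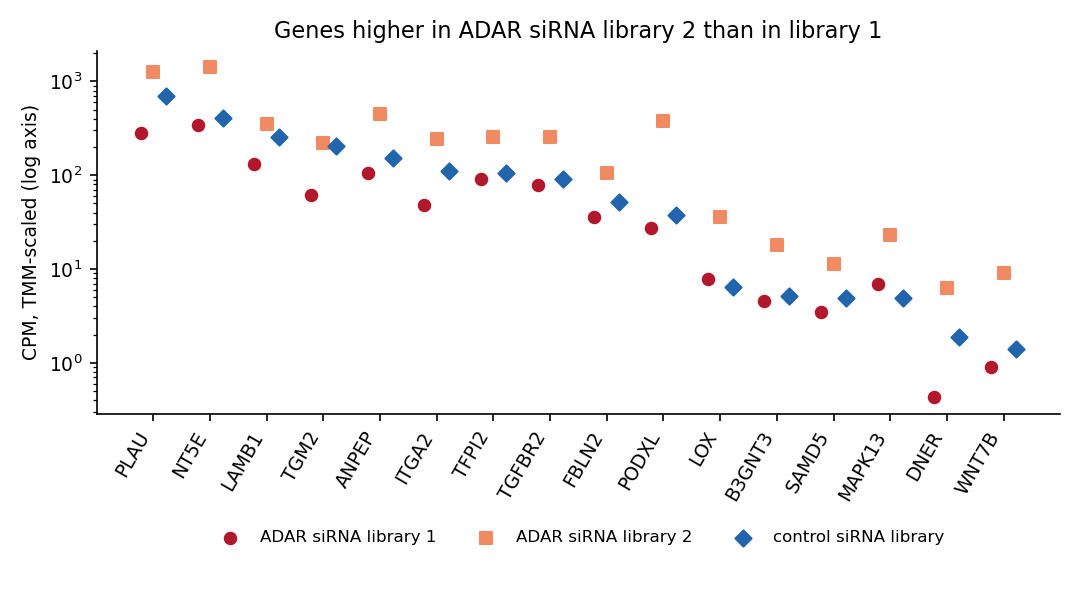
Level in TMM-scaled CPM (vertical, log axis) of the 16 genes with at least 5 CPM called higher in ADAR siRNA library 2 than in library 1, in each of the 3 NCI-H1395 libraries. Library 2 is highest throughout, and the control lies nearer to library 1 for NT5E, PODXL and LOX but at the level of library 2 for TGM2.

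The wider list of 41 matrix, mesenchymal and TGF-beta response genes had a median log2 ratio of -0.01 in library 1 and 0.80 in library 2, and 31 of the 41 were higher in library 2 than in library 1, against 48.9% of all genes tested. Against the control, library 1 had 1 member called lower, SPARC, a matrix glycoprotein (1.72 and 3.75 CPM, against 6.81 CPM), and library 2 had 1 called higher, LOX. ITGA5, the fibronectin receptor subunit, had 302 and 542 CPM, against 187 CPM, and was not called. The summed level of 13 endothelial and fibroblast markers was 8.25 CPM in library 1, 16.8 CPM in library 2 and 7.67 CPM in the control, and 8 of the 13 were higher in library 2 than in library 1 and 5 lower. The endothelial genes VWF and PECAM1 had 13 and 25 counts in library 1 and 33 and 82 in library 2, against 1 and 41 in the control, and CDH5 had 0 in all 3. The fibroblast collagens COL1A1 and COL3A1 had 48 and 1 counts in library 1 and 77 and 0 in library 2, against 22 and 0 in the control. None of the 13 was called, and the part of such cells in the result was not tested.

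Among genes called lower in library 2 than in library 1, DHRS2 and PLEKHA4 were the members of the 5 largest that are not interferon-stimulated. DHRS2, a short-chain reductase, was at 45.8 CPM in library 1 and 8.65 CPM in library 2, against 15.2 CPM in the control. PLEKHA4, an adaptor in Wnt signalling, had 18.1 and 3.45 CPM, against 7.51 CPM. In both, library 1 was high and library 2 low.

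Cell cycle genes were lower in both ADAR siRNA libraries, without calls for the pair by edgeR. Of 30 mitosis genes 29 lay below the control in both libraries, where 38.3% of all genes with at least 5 CPM in 1 library did so, and the exception was NUSAP1, a spindle protein. The list's median log2 ratio was -0.80 in library 1 and -0.95 in library 2. Cyclin A2 (CCNA2), which drives S phase and entry into mitosis, was at 55.6 and 61.2 CPM with ADAR siRNA and 130 CPM with control siRNA. The mitotic kinase AURKA had 92.6 and 103 CPM, against 213 CPM, and the kinesin KIF20A had 66.9 and 63.0 CPM, against 144 CPM. These 3 were the members at least 2-fold lower in both libraries, and the libraries agreed closely in each. So were 1.73% of all genes tested and 0.346% of those with at least 5 CPM in 1 library. The pair test called 0 of the 30 with edgeR, and 26 had an unadjusted p under 0.05, as did 5.30% of all genes tested. DESeq2 called 4 (0.196% of all genes tested), the above and the kinase PLK1 (93.4 and 85.1 CPM, against 183 CPM). The DESeq2 adjusted p was 0.00388 for CCNA2, 0.00592 for KIF20A, 0.00466 for AURKA and 0.0474 for PLK1.

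All 38 DNA replication genes lay below the control in both libraries, where 38.3% of all genes with at least 5 CPM in 1 library did so. Their median log2 ratio was -0.49 in library 1 and -0.82 in library 2. RRM2, which makes deoxynucleotides, was at 143 and 127 CPM with ADAR siRNA and 263 CPM with control siRNA, and was the 1 member DESeq2 called for the pair (adjusted p = 0.00875). The helicase subunit MCM6 had 167 and 106 CPM, against 280 CPM. The sliding clamp PCNA had 85.0 and 48.9 CPM, against 137 CPM, and was called in library 2 alone (log2 fold change -1.49 ± 0.33, edgeR adjusted p = 0.0448). With library totals as the scale, 28 of 30 mitosis and 37 of 38 replication genes lay below the control in both libraries. On that scale 5943 of all 23959 genes tested did so. Growth-restraining genes were mixed, with 12 of 24 higher and 6 lower in both, where 32.4% and 30.8% of all genes tested were. Among them TSC22D1, a TGF-beta-induced factor, had 123 and 160 CPM, against 75.1 CPM, ARRDC3, an arrestin-domain adaptor, had 86.4 and 64.2 CPM, against 31.3 CPM, and the CDK inhibitor CDKN2C had 29.5 and 19.4 CPM, against 42.0 CPM. None of these 3 was called.

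Histone genes did not follow the replication genes. Of 31 replication-dependent histone genes, 22 lay above the control in both libraries and 3 below (H2AC20, H4C3 and H2BC9), where 32.4% and 30.8% of all genes tested did so. Only 12 of the 31 reached 5 CPM in 1 library, as all 38 replication genes did. Rises of at least 2-fold in both libraries were more common among weakly transcribed genes in general (7.49% under 1 CPM, against 1.03% at 5 CPM or more). The median log2 ratio was 0.75 in library 1 and 0.78 in library 2, with summed levels of 536 and 538 CPM, against 314 CPM. H4C8, a histone H4 gene, was at 33.8 CPM in library 1 and 53.1 CPM in library 2, against 9.57 CPM in the control, and was called in library 2 (log2 fold change 2.47 ± 0.48, edgeR adjusted p = 0.00735). H2BC5 had 45.1 and 48.0 CPM, against 16.9 CPM, and was called for the pair by DESeq2 (adjusted p = 0.0284). Most such transcripts lack a poly(A) tail, and these libraries were made from poly(A)-selected RNA, and what part this plays in their levels was not tested. Near-identical histone copies can also share reads.

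Genes for making protein, energy and cholesterol lay slightly below the control in both libraries. Of 79 cytosolic ribosomal protein genes, 71 lay below the control in both libraries and 1 above it, with median log2 ratios of -0.19 and -0.31. Over all genes with at least 5 CPM in 1 library, 38.3% lay below it in both. Of 72 nuclear respiratory chain genes 60 lay below, with medians of -0.25 and -0.29, among them the ATP synthase subunit ATP5F1B (734 and 712 CPM, against 1077 CPM). Of 24 cholesterol genes 21 lay below, with medians of -0.34 and -0.44, among them IDI1, an isoprenoid isomerase (64.1 and 63.0 CPM, against 110 CPM). None of these genes was called by edgeR in either library or for the pair. In the pair test 1 of 79, 4 of 72 and 7 of 24 had an unadjusted p under 0.05, as did 5.30% of all genes tested. With library totals the counts below the control in both were 61, 52 and 19, against 5943 of all 23959 genes tested. That scale moved the median of all genes tested by 0.03 in library 1 and 0.09 in library 2.

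**Figure D5:**
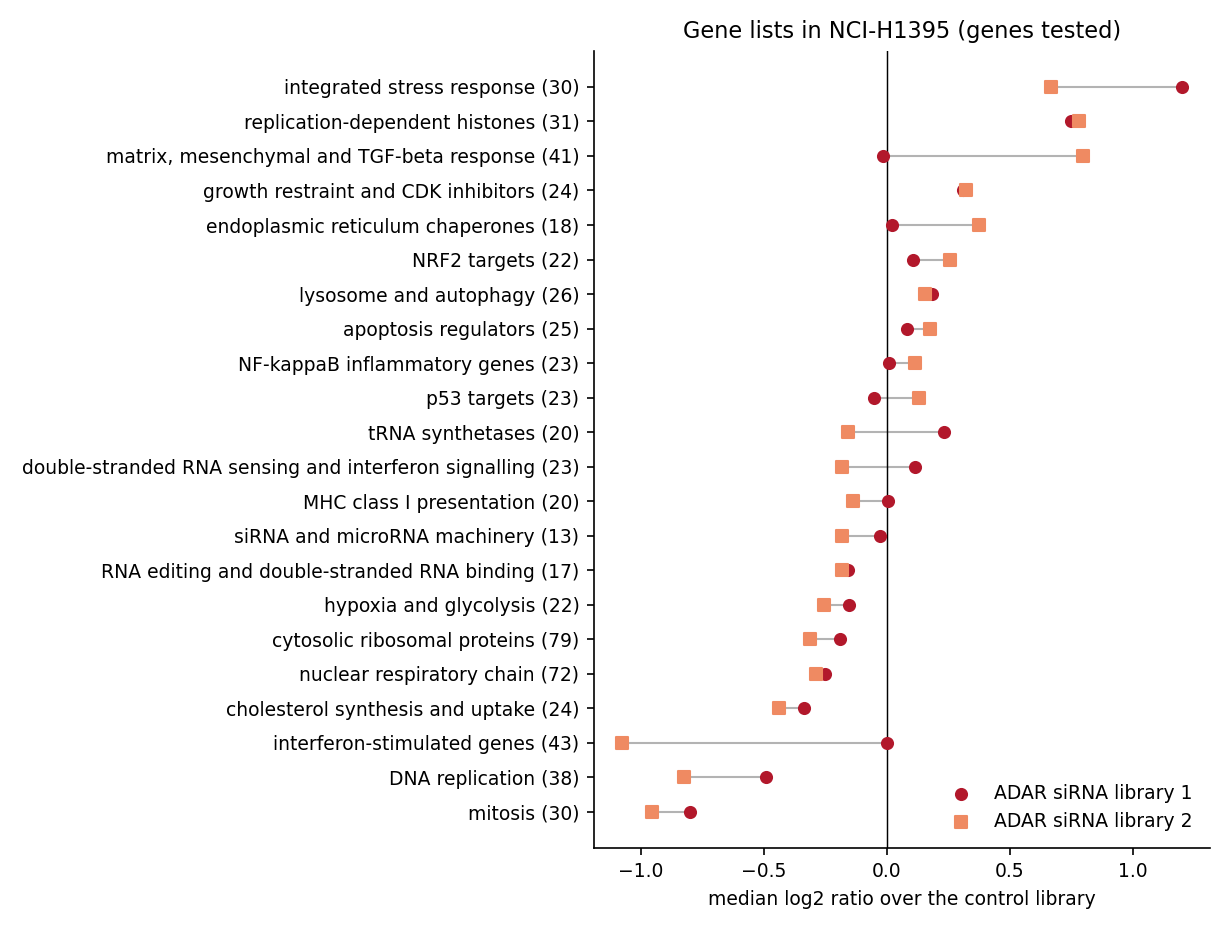
Median log2 ratio over the control library (horizontal) of 22 gene lists in ADAR siRNA library 1 (circles) and library 2 (squares), with the number of genes tested in brackets. Mitosis and DNA replication lie left of 0 and the integrated stress response right of 0 in both libraries, while interferon-stimulated genes are near 0 in library 1 and -1.08 in library 2, and matrix genes near 0 in library 1 and 0.80 in library 2.

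Some oxidative stress genes were higher. Of 22 NRF2 targets, 13 were higher and 7 lower in both libraries, where 32.4% and 30.8% of all genes tested were. At least 2-fold higher in both were 4, namely SLC7A11 (also in the stress response list), HMOX1, OSGIN1 and ABCC3. So were 4.59% of all genes tested and 1.03% of those with at least 5 CPM in 1 library. HMOX1, which breaks down haem, was at 441 CPM in ADAR siRNA library 1 and 199 CPM in library 2, against 91.0 CPM in the control, and was called in library 1 (log2 fold change 2.28 ± 0.34, edgeR adjusted p = 8.82e-05). OSGIN1, an oxidative stress growth inhibitor, had 116 and 123 CPM, against 39.6 CPM, and the export pump ABCC3 had 11.8 and 21.9 CPM, against 3.46 CPM. DESeq2 called all 4 for the pair (adjusted p = 0.00196, 0.00268, 0.00802 and 0.00868), and edgeR none. In the hypoxia and glycolysis list 1 of 22 was called in library 1, the vessel growth factor VEGFA, with 57.4 and 34.8 CPM, against 18.6 CPM. The glycolytic enzyme ENO1 lay lower in both libraries, with 2006 and 2058 CPM, against 2974 CPM, and was not called.

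A few immediate-early and clock genes were picked after their values were seen. EGR1, a growth factor-induced zinc finger factor, was at 423 CPM in ADAR siRNA library 1 and 111 CPM in library 2, against 23.1 CPM in the control, and was not called in either (edgeR adjusted p = 0.788 and 0.81). FOS, a subunit of AP-1, had 26.0 and 13.4 CPM, against 4.27 CPM, and was called in library 1 (edgeR adjusted p = 0.0159). JUN, its partner, had 122 and 173 CPM, against 62.0 CPM, and was called in library 2 (0.0448). The TGF-beta-induced factor KLF10 had 378 and 287 CPM, against 91.1 CPM, and was called in library 1 (0.0102). The clock repressor PER1 had 76.1 and 37.6 CPM, against 21.02 CPM, and was called in library 1 (0.0092). Its relative PER2 had 18.1 and 16.2 CPM, against 5.57 CPM, and was called by DESeq2 for the pair (adjusted p = 0.00388), while PER3 stood at 33.2 and 29.5 CPM, against 30.3 CPM. All but PER3 were above the control in both libraries, and JUN alone of them was higher in library 2 than in library 1.

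The remaining lists held no gene called in either library besides ADAR itself. They were NF-kappaB inflammatory genes (10 of 23 higher and 7 lower in both libraries), p53 targets (6 and 6 of 23), apoptosis regulators (14 and 3 of 25), lysosome and autophagy genes (15 and 1 of 26), endoplasmic reticulum chaperones (6 and 0 of 18), MHC class I presentation (6 and 7 of 20), RNA editing and double-stranded RNA binding (3 and 11 of 17) and siRNA and microRNA machinery (3 and 5 of 13). Among all genes tested, 32.4% were higher and 30.8% lower in both libraries, and p53 targets and MHC class I presentation lay near these shares. RELB, a subunit of NF-kappaB, was at 373 and 238 CPM with ADAR siRNA and 154 CPM with control siRNA. GADD45A, a p53-induced growth arrest gene, had 128 and 106 CPM, against 66.4 CPM. XBP1, a factor of the unfolded protein response, had 167 and 86.7 CPM, against 62.8 CPM. The autophagy kinase ULK1 had 67.9 and 107 CPM, against 48.2 CPM. These 4 lay above the control in both libraries without passing the test.

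Weakly transcribed genes had more 2-fold ratios than well transcribed ones. At least 2-fold higher in both libraries were 7.49% of genes under 1 CPM, 8.81% of those between 1 and 5 CPM and 1.03% of those with 5 CPM or more. At least 2-fold lower were 3.59%, 1.85% and 0.346%. Among genes with 5 CPM or more, 10 of 179 lincRNA genes were at least 2-fold higher in both (5.59%), against 94 of 10809 protein-coding genes (0.87%). ADAR siRNA library 1 held counts for 27472 genes and library 2 for 26974, against 25402 in the control. The part of these detection differences in the ratios was not tested.

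The NCI-H1395 response was also set against the mean response of the 3 other lines. By edgeR 0 of 23959 genes differed (0%; 698 at an unadjusted p under 0.05, 2.91%). DESeq2 called 5, namely SLC7A11, HMOX1, PPP1R15A and ARRDC4, which were higher, and ARHGDIB, which was lower. The difference of NCI-H1395 from the other lines was 1.97 ± 0.44 for SLC7A11 on the log2 scale (DESeq2 adjusted p = 0.0432), 2.02 ± 0.45 for HMOX1 (0.0432), 1.71 ± 0.38 for PPP1R15A (0.0434), 4.49 ± 0.91 for ARRDC4 (0.00855) and -3.44 ± 0.67 for ARHGDIB (0.00804). ARHGDIB was low in all 3 NCI-H1395 libraries, with 0.17 and 0.85 CPM with ADAR siRNA and 3.68 CPM with control siRNA. For SLC7A11 the log2 ratios were 2.19 and 1.31 in the NCI-H1395 libraries, and ran from -0.71 to 0.41 in the 6 ADAR siRNA libraries of the other lines. For HMOX1 they were 2.28 and 1.13, against -0.43 to 0.01. The integrated stress response list had medians of 1.20 and 0.67 in NCI-H1395, against -0.21 to 0.41 in the 6 other libraries, and the interferon-stimulated list 0.00 and -1.08, against -0.59 to 0.16. In BT-549 the interferon-stimulated median was also lower in library 2 (-0.59) than in library 1 (-0.09), but not in MDA-MB-231 (0.02 and -0.09) or AGS (0.16 and -0.07). The matrix list's median was higher in library 2 than in library 1 in BT-549 (0.86 and 0.16) and AGS (0.53 and 0.09). In MDA-MB-231 it was -0.04 and -0.03. The mitosis list had medians of -0.80 and -0.95 in NCI-H1395, against -0.83 to -0.16 in the 6 other libraries. For the DNA replication list they were -0.49 and -0.82, against -0.65 to -0.03, so both lists lay below 0 in the other lines too. No test of these list differences was made.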

How the data were processed

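RNA sequencing libraries were made from poly(A)-selected RNA, per the labels' protocols. The submitters' processing notes list the tools featureCounts 2.0.6, STAR 2.7.11a and fastp 0.23.4 and the build hg38. No source used here gives the strand setting, so overlapping genes on opposite strands and near-identical copies could share reads. The authors deposited integer counts per gene, and 3 broken lines of 1 gene were dropped, so 62699 genes were read. Each of the 14 columns matched 1 sample.

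Tests used R 4.3.3 and edgeR 4.0.16 on the 12 siRNA libraries of 4 lines, with filterByExpr, TMM scaling, robust quasi-likelihood tests, adjusted by Benjamini-Hochberg at 0.05. A fit of 8 groups (line by treatment, 4 residual degrees of freedom) gave the pair contrast. A fit of 9 groups, with the NCI-H1395 ADAR siRNA libraries apart, gave each library's contrast and their difference, with 3 residual degrees of freedom from the other lines. Errors after ± are standard errors. Single-library log2 ratios use TMM-scaled CPM with a prior count of 2. A change was to be shared where the pair was called and both libraries moved at least 2-fold one way. P-values measure only the spread between samples, which may be technical. On simulated data, with changes planted only in genes above a minimum level and count, the fits recovered most 4-fold and few 2-fold changes. Recovery was not simulated for weakly transcribed genes. Unchanged genes made up more than the nominal share of calls.

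Members, gene lists and tests were chosen with earlier results of these data known. The rule for names took ADAR, ADARB1 and NOP14, the 12 largest shared changes each way, the 5 largest differences between the libraries each way with at least 5 CPM, and 3 members per list by pair p. Since ADAR was the only shared change, other genes named for being called in 1 library, in DESeq2 or for their role were chosen after their values were seen. Alternatives were DESeq2 1.42.0, other scalings, filters, libraries and a block for library number. A few genes are not reported here. Intervals were not used, and gene coordinates are as deposited. Promoters came from RefSeq (GRCh38.p14).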

Additional observations from a re-analysis of the deposited data

How the results depend on the processing

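Median-ratio scaling, a filter at 1 CPM in 3 libraries, protein-coding genes alone and the NCI-H1395 libraries alone kept the counts they could give within 1.5 times, and the shared count stayed at 1 with other prior counts and fold sizes. Library totals gave 19 calls in library 2 and 12 between the libraries. DESeq2 gave 47 for the pair, 41 shared, 67 in library 1, 96 in library 2, 63 between the libraries and 5 against the other lines. With no filter beyond 1 count these were 72, 62, 80, 144, 110 and 23. Without MDA-MB-231, which leaves fewer residual degrees of freedom, there were 13, 6 and 5 calls in library 1, library 2 and between them. Called in each library's own test, 6 changes were shared, a reading added after the data were seen. Leaving out ADAR siRNA library 1 or 2 gave 38 to 39 calls for the pair and 9 to 12 against the other lines, with the lone libraries assumed to vary alike, and no value for shared changes, which need both. Across these 2 fits the pair value changed sign or went to 0 for NOP14 (-0.669 to 0.207), ADARB1 (-0.0732 to 0.124) and IFNL3 (0 to 6.76). The cause of these differences was not tested.

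The library numbers are not shown to pair samples across lines: correlations of the deviations of same-numbered libraries ran from -0.08 to 0.44, 3 of 6 below 0.1. The 3 below 0.1 all involved MDA-MB-231. NCI-H1395 had 0.44 with BT-549, 0.21 with AGS and -0.07 with MDA-MB-231. A fit with library number as a replicate block gave 149 calls for the pair, 90 shared and 32 against the other lines. Depth of 14858945 to 20963856 counts limits genes under about 1 CPM, whose ratios rest on few counts.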

Other observations

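Further genes were called in ADAR siRNA library 1 outside the lists, picked after their values were seen. GRIN2B, a glutamate receptor subunit of neurons, was at 9.24 CPM in library 1 and 0.97 CPM in library 2, against 0.27 CPM in the control (edgeR adjusted p in library 1 = 0.011). The neurotrophin receptor NGFR had 7.74 and 3.45 CPM, against 1.46 CPM (0.0437). KDM6B, a histone H3 demethylase, had 69.1 and 39.9 CPM, against 17.2 CPM. ADM2, a secreted peptide of the adrenomedullin family, had 34.0 and 15.1 CPM, against 5.40 CPM. All 4 lay above the control in both libraries and highest in library 1.

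Genes called against the control in library 2 included RIN2, an exchange factor for the endosomal GTPase RAB5, with 5.07 CPM in library 1 and 14.2 CPM in library 2, against 3.78 CPM in the control (edgeR adjusted p in library 2 = 0.0128). MAPK13, a p38 kinase, had 6.97 and 22.9 CPM, against 4.86 CPM (0.00175). The long noncoding RNA MIR31HG had 3.87 and 7.02 CPM, against 1.08 CPM (0.0449). ALDH7A1, which breaks down lysine, was lower, with 60.8 and 20.8 CPM, against 79.1 CPM (0.00966). In each, library 2 lay further from the control than library 1.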
